A study of Mus musculus with 8 samples.

Results

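The genes described here encode the signalling chains of the T cell receptor and the kinase and adaptors that act directly behind it. They were chosen by name, with earlier results of these data known. Cd3d, Cd3e, Cd3g and Cd247 encode the CD3 and zeta chains. Lck and Zap70 are kinases, and Lat, Lcp2 and Skap1 are adaptors. Of these 9 genes, 8 were measured, out of 19938 genes with a named probe set, and each of the 8 had 1 probe set. No probe set is named for Lck in the probe table used here, so Lck was not analysed. All 8 lay above the filter on low values in all 8 arrays and entered the test, with signals between 10.22 and 13.26 on the log2 scale.

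The study measured RNA on Affymetrix whole-transcript arrays in naive mouse CD4 T cells cultured for 24 hours. The wild-type (WT) group, 4 arrays, had intact Bcl6, and the other group (KO), 4 arrays, came from conditional Bcl6-/- mice in which the deletion is restricted to T cells; the labels name no Cre driver, strain or age. Both groups were stimulated through CD3 and CD28 with antibodies, received IL6 and IL21, and had IL-4, interferon gamma and TGFb blocked, the conditions meant to yield follicular helper T (Tfh) cells. Whether replicates are different animals is not stated, so the p-values rest on array-to-array spread that may be technical. Because the culture itself triggers the T cell receptor, the levels below are those of activated cells in both groups, with no unstimulated sample beside them.

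The T cell receptor has no enzymatic activity of its own. When the receptor binds antigen, or an antibody to CD3, the Src-family kinase Lck phosphorylates paired tyrosines in the tails of the CD3 and zeta chains, and the kinase ZAP-70 docks there and is activated. ZAP-70 phosphorylates the membrane adaptor LAT and the cytosolic adaptor SLP-76 (the product of Lcp2), which together gather the enzymes that release calcium and switch on Ras and protein kinase C, while SKAP55 (the product of Skap1) links the receptor to integrin adhesion. Bcl6 is a transcriptional repressor needed for the Tfh fate, and the comparison asks whether transcript levels of this machinery differ between cells with and without it.

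Cd3g, Cd3d and Cd3e lie beside one another on mouse chromosome 9. The start sites of Cd3g and Cd3d, which are read in opposite directions, are 1355 bases apart in the table used. The 250 bases before the start site of these 3 genes and of Zap70 are shown because of values described below. The CD3 transcripts shared their highest and lowest WT-labelled arrays, though not all shared their highest or lowest KO-labelled array. Zap70 separated the groups. The sequences are from RefSeq (GRCm38.p6), written 5′ to 3′ along the gene's own strand; for Zap70, the most upstream of 3 entries was taken. They span chr9:44980432-44980681 (minus strand) for Cd3g, chr9:44981536-44981785 (plus) for Cd3d, chr9:45009612-45009861 (minus) for Cd3e and chr1:36761548-36761797 (plus) for Zap70. Capitals mark matches, on either strand, to the motifs searched.

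Cd3g: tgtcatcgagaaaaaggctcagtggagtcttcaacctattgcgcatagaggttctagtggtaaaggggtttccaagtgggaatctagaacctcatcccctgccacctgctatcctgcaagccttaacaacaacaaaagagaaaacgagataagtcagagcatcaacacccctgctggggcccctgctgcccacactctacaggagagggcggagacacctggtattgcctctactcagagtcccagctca
Cd3d: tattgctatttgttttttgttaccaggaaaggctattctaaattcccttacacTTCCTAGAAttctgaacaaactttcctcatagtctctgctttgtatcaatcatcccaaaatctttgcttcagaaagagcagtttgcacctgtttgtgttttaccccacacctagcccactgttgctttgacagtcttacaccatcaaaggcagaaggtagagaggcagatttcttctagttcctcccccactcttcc
Cd3e: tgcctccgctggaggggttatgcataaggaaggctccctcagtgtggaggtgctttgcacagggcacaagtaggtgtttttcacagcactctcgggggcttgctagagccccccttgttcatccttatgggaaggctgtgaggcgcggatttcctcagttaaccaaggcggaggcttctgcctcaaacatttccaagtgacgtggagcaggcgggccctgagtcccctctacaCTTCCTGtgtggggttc
Zap70: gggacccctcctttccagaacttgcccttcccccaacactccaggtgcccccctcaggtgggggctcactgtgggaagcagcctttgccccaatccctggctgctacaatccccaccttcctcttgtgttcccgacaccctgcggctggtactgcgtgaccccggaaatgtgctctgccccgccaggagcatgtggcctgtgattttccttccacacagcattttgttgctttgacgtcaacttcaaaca

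The motifs were TTCCTAGAA (a core of the BCL6 consensus), TTCNNNGAA (a STAT-type core, of which the former is a special case) and, for factors of the Ets family, CAGGAAG. Also searched were the core bound by Runx factors, TGTGGT, and the box found near many start sites, TATAAA. The stretch before Cd3d holds TTCCTAGAA, beginning 197 bases before the start site. Of 27025 promoters of the same length, 0.355% hold this motif and 7.14% hold TTCNNNGAA. The stretch before Cd3e holds CAGGAAG on the opposite strand, where it is printed as its complement, beginning 17 bases before the start site. In all, 3 of 8 promoters hold that motif, those of Cd3e, Cd247 and Lck, against 10.5% of all promoters. TGTGGT occurs before Lck alone (14.2% of all promoters) and TATAAA before none of the 8 (13.0%). No searched motif occurs in the windows of Cd3g and Zap70. Of the 9 genes, 8 had a promoter in the table, and Skap1 did not. A match is a description of the letters only.

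Bcl6 itself does not check the labels, since its signal was higher in the KO-labelled arrays (8.61 to 8.91 in the WT-labelled and 9.08 to 9.19 in the KO-labelled arrays) and its single probe set need not lie in the deleted part. Each direction below thus follows the labels. KO replicate 1 stood apart over all tested genes: the typical gene there deviated from its group mean by 0.115 (median, log2), and by 0.04 to 0.0725 in KO replicates 2 to 4, and the array it correlated with best was WT replicate 3. For the 8 genes described here its median deviation was 0.0375, within the range of the other arrays (0.0213 to 0.0913). The cells carried T cell transcripts throughout, with Cd4 between 12.38 and 12.56 and Cd5 between 13.35 and 13.44. The T cell marker Thy1 was not level. It lay at 12.17 to 12.45 in WT and 12.51 to 12.57 in KO. Its difference of 0.2375 did not pass (limma adjusted p = 0.123). All 6 myeloid markers were under the filter in every array (mean level 6.10 to 6.24), and of 4 B cell markers 1, Cd79b, was tested (adjusted p = 0.566 in limma). Of 6 Tfh markers, all tested, 1 rose and none fell past the threshold (16.7%, against 1.32% of all tested genes). Without passing, Cxcr5 (-0.26), Tox2 (-0.22), Pdcd1 (-0.215) and Icos (-0.05) were lower in KO and Il21 (0.115) higher. At an unadjusted limma p under 0.05, 66.7% of these markers differed, against 16.6% of all tested genes. Their levels differed widely. Cxcr5, the receptor that brings Tfh cells to B cell follicles, lay between 7.27 and 8.11, near the filter level of 6.91 to 7.15. The cytokine Il21 lay far above that level, at 12.21 to 12.35 in WT and 12.37 to 12.45 in KO. The inhibitory receptor gene Pdcd1 did too, at 11.07 to 11.23 in WT and 10.83 to 11.01 in KO. Neither overlapped between the groups (limma adjusted p = 0.268 for Il21 and 0.0931 for Pdcd1). Cd200, a surface glycoprotein, was the marker that rose (11.925 ± 0.0759 in WT and 12.262 ± 0.095 in KO, SD, n = 4, with no overlap; limma adjusted p = 0.038), a call lost without any 1 array other than KO replicate 1 (adjusted p up to 0.143).

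None of the 8 genes passed the test between the groups, in which 1.32% of 11926 genes did (limma, Benjamini-Hochberg adjusted p under 0.05; 0.671% lower and 0.646% higher in KO). Of the 8 differences, 5 were negative and 3 positive, and they ran from -0.185 to 0.105 on the log2 scale, with a median of -0.01 beside -0.02 over all tested genes. The median size of difference was 0.1 for the 8 genes and 0.065 over all tested genes. At an unadjusted p under 0.05, 2 of the 8 differed, Skap1 and Zap70, where 16.6% of all tested genes did. The WT-labelled and KO-labelled arrays did not overlap in these same 2 genes, both lower in KO; 10.8% of tested genes had no overlap, 7.66% with KO lower and 3.1% with KO higher.

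**Figure D1:**
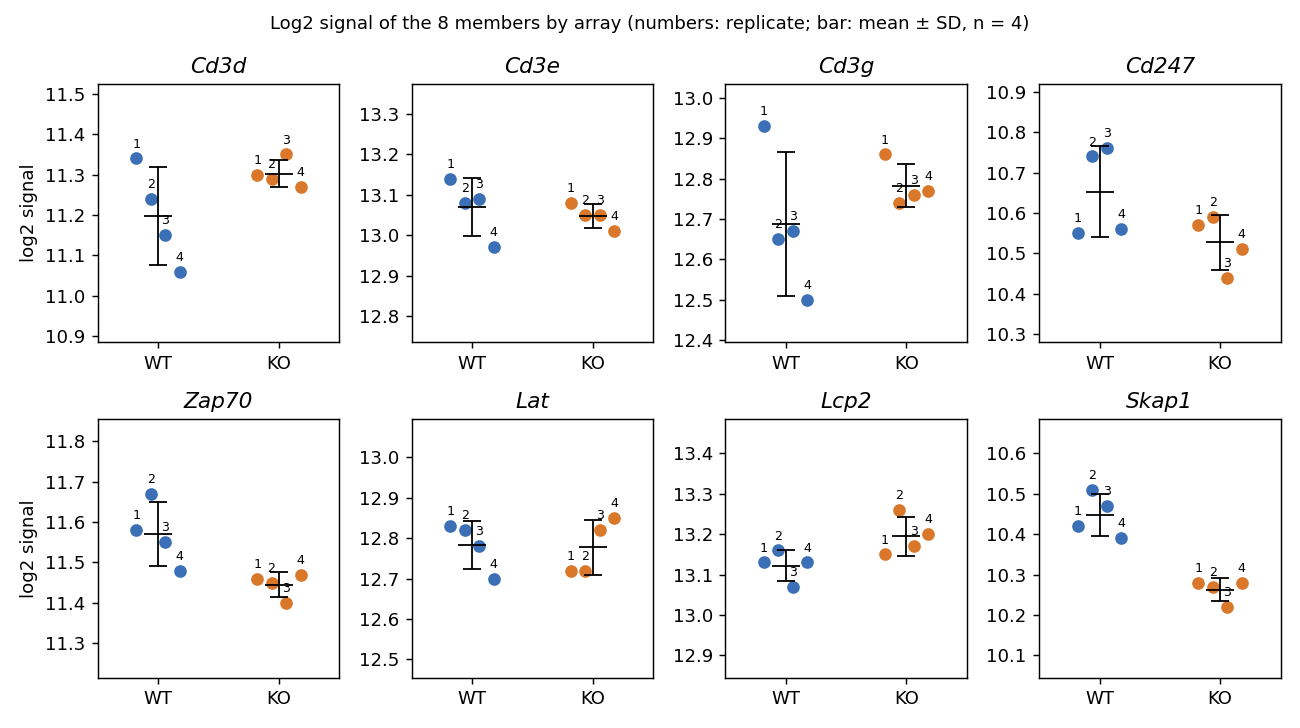
Log2 signal of the 8 genes in each of the 4 WT and 4 KO arrays (y axis, log2; each panel spans the same height around its own centre and does not start at 0). Points are arrays, numbered by replicate, and bars give mean ± SD (n = 4); the groups are apart in Skap1, by 0.11, and in Zap70, by 0.01, and overlap in the other 6 genes.

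Among the receptor chains, Cd3d (the delta chain) read 11.34, 11.24, 11.15 and 11.06 in WT replicates 1 to 4 and 11.30, 11.29, 11.35 and 11.27 in KO replicates 1 to 4. The KO-labelled arrays lay in the upper part of the WT range, and only KO replicate 3 exceeded the highest WT value. The difference was 0.105 ± 0.062 (SE; 95% interval -0.033 to 0.243; limma adjusted p = 0.454, exact permutation p = 0.171, two-sided).

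Cd3g (the gamma chain) read 12.93, 12.65, 12.67 and 12.50 in the WT-labelled arrays and 12.86, 12.74, 12.76 and 12.77 in the KO-labelled arrays. All KO values lay inside the WT range, which at 0.43 was the widest of any of the 8 genes. The difference was 0.095 ± 0.0822 (SE; 95% interval -0.088 to 0.278; limma adjusted p = 0.643).

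Cd3e (the epsilon chain, the one bound by the CD3 antibodies commonly used on mouse T cells) read 13.14, 13.08, 13.09 and 12.97 in the WT-labelled arrays and 13.08, 13.05, 13.05 and 13.01 in the KO-labelled arrays. Again every KO value fell inside the WT range. The difference was -0.02 (95% interval -0.131 to 0.086; limma adjusted p = 0.888).

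Cd247 (the zeta chain, which carries more of the paired tyrosines than any CD3 chain) read 10.55, 10.74, 10.76 and 10.56 in the WT-labelled arrays and 10.57, 10.59, 10.44 and 10.51 in the KO-labelled arrays. WT replicates 2 and 3 stood above all the other arrays, while WT replicates 1 and 4 were among the KO values. The difference was -0.125 ± 0.0641 (SE; 95% interval -0.268 to 0.018; limma adjusted p = 0.372, exact permutation p = 0.171, two-sided).

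The 3 CD3 chain transcripts shared their highest and their lowest WT-labelled array, which the zeta chain did not. The pattern was not particular to them. Lat had the same highest and lowest WT-labelled arrays (12.83 and 12.70). So did Snora16a (11.62 and 11.15) and Tomm22 (11.45 and 11.09), which are outside the 8 genes and described below. WT replicate 1 was highest and WT replicate 4 lowest for Cd3d, Cd3g and Cd3e alike, by 0.28, 0.43 and 0.17 from end to end, whereas for Cd247 both of these arrays were low. Among the KO-labelled arrays the same transcripts spread over 0.08, 0.12 and 0.07. In 6 of the 8 genes the WT range was wider than the KO range, in 1 (Lat) the ranges were equal and in 1 (Lcp2) the KO range was wider. Over all tested genes, 30.6% had the wider range in WT. WT replicate 4 lay below its group mean in 7 of the 8 genes, all but Lcp2. Without it, the difference in Cd3d was 0.0592 in place of 0.105 and that in Cd3g 0.0325 in place of 0.095.

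**Figure D2:**
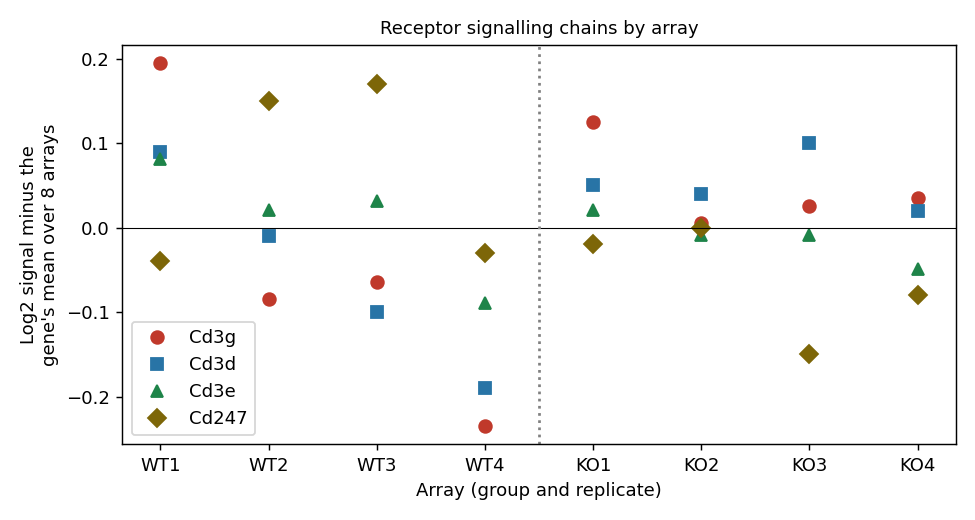
Log2 signal of Cd3g, Cd3d, Cd3e and Cd247 in each array, minus the gene's mean over the 8 arrays (y axis, log2; x axis, array). WT replicate 1 is the highest and WT replicate 4 the lowest WT array for the 3 CD3 chains, and both are low for Cd247.

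Zap70, the kinase that docks on the phosphorylated chains, read 11.58, 11.67, 11.55 and 11.48 in the WT-labelled arrays and 11.46, 11.45, 11.40 and 11.47 in the KO-labelled arrays. Every KO value was below every WT value, but the gap between WT replicate 4 and KO replicate 4 was 0.01, the last decimal the deposited values carry. Means were 11.57 ± 0.0787 and 11.445 ± 0.0311 (SD, n = 4), a difference of -0.125 ± 0.0506 (SE; 95% interval -0.238 to -0.012). It did not pass over all genes (limma adjusted p = 0.25); the exact permutation p was 0.0286, two-sided, the smallest that 4 against 4 can give.

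Skap1, the adaptor that ties the receptor to integrins, had the smallest p of the 8 genes. Its signal was 10.42, 10.51, 10.47 and 10.39 in the WT-labelled arrays and 10.28, 10.27, 10.22 and 10.28 in the KO-labelled arrays. The groups were 0.11 apart, about as far as the WT arrays spread among themselves (0.12). The difference was -0.185 ± 0.045 (SE; 95% interval -0.285 to -0.085), a level in the KO-labelled arrays of 0.88 times that in the WT-labelled arrays (limma adjusted p = 0.0794, exact permutation p = 0.0286, two-sided), and 90.6% of tested genes had a smaller difference. Skap1 ranked 324 by p among the 11926 genes. Without KO replicate 1 it passed, with a difference of -0.191 (limma adjusted p = 0.0382), where 6.6% of 11866 genes did and 2.7% did with KO lower; without any 1 of the other 7 arrays it did not, with adjusted p up to 0.262.

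Lat, the membrane scaffold, was close to level between the groups. It read 12.83, 12.82, 12.78 and 12.70 in the WT-labelled arrays and 12.72, 12.72, 12.82 and 12.85 in the KO-labelled arrays, so that KO replicates 1 and 2 lay in the lower part of the WT range, KO replicate 3 near its top and KO replicate 4 above it. The difference was -0.005 (95% interval -0.121 to 0.111; limma adjusted p = 0.979), and its sign turned with the choice of scaling or of arrays.

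Lcp2, whose product SLP-76 is the partner of LAT, read 13.13, 13.16, 13.07 and 13.13 in the WT-labelled arrays and 13.15, 13.26, 13.17 and 13.20 in the KO-labelled arrays. KO replicates 2, 3 and 4 exceeded every WT value and KO replicate 1 lay just under the highest of them. The difference was 0.0725 ± 0.0451 (SE; 95% interval -0.028 to 0.173; limma adjusted p = 0.484, exact permutation p = 0.0571, two-sided).

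The precision of the test bounds these results. With the spread each gene showed in this fit, the smallest difference that would have passed was between 0.22 (Skap1) and 0.402 (Cd3g) on the log2 scale. The 95% intervals of all 8 genes stayed within -0.285 and 0.278. Both the size needed and the calls depend on the model, and Skap1 passed with an intensity trend and a robust prior (limma adjusted p = 0.0476). A p that misses the threshold does not show equal levels.

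**Figure D3:**
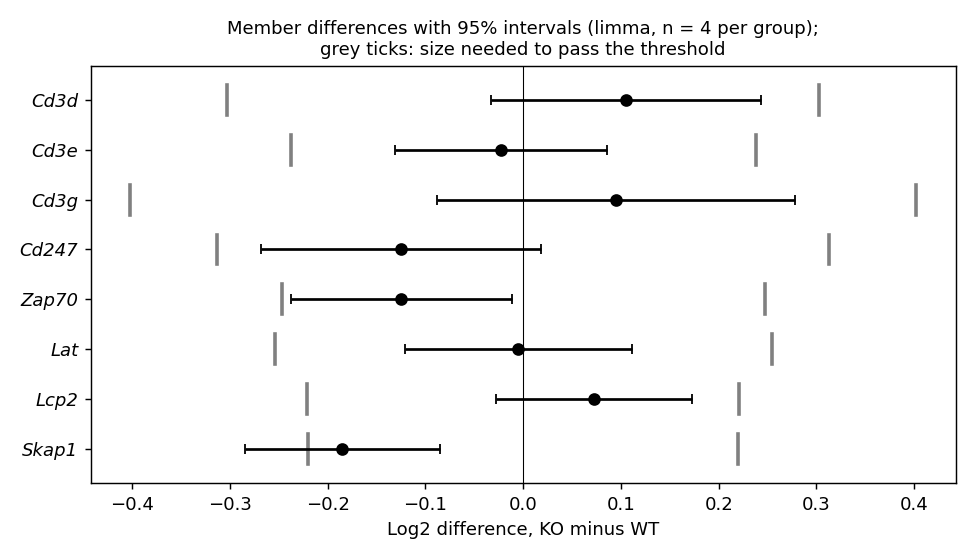
Log2 difference, KO minus WT, of the 8 genes (points) with 95% intervals from limma (bars, 4 arrays a group). Grey ticks mark the size each gene needed to pass the threshold; no point lies beyond its ticks, and the intervals of Skap1 and Zap70 lie below 0.

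Other genes of the pathway were read from lists by role, chosen with earlier results of these data known. Of 67 tested, 3 fell and none rose: Lime1, Dgkz and Itpkb, that is 4.48% against 1.32% of all tested genes. Differences were negative in 49 of the 67 (73.1%, against 57.9% of all tested genes), with a median of -0.05 beside -0.02. The groups did not overlap, with KO lower, in 17 (25.4%, against 7.66%), and with KO higher in 2. These shares describe the lists and were not tested as sets.

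Among the kinases and adaptors that act with the 8 genes, 1 of 21 fell, none rose and 20 did not pass. That is 4.76% called, against 1.32% of all tested genes. Lime1, a membrane adaptor that binds Lck and the inhibitory kinase Csk, read 10.06, 10.05, 9.95 and 9.93 in the WT-labelled and 9.73, 9.70, 9.61 and 9.74 in the KO-labelled arrays. Every KO array was below every WT array, by 0.19 or more, and the difference was -0.30 ± 0.0518 (SE; limma adjusted p = 0.0303). Txk, a Tec-family kinase that acts on phospholipase C gamma, differed by -0.40 (10.42 to 10.79 in WT, 10.07 to 10.35 in KO) without passing (limma adjusted p = 0.0626). Fyn, the second Src-family kinase of T cells, differed by -0.22 (limma adjusted p = 0.0793) and Vav1, an exchange factor recruited by SLP-76, by -0.14 (limma adjusted p = 0.164), each with no overlap. Nck1, an adaptor that binds SLP-76 and the epsilon chain, differed by 0.245 the other way (limma adjusted p = 0.0931). Fyb, the binding partner of SKAP55 known as ADAP, differed by -0.20 with overlapping groups (limma adjusted p = 0.274), and Skap2, the relative of Skap1, by -0.10 (limma adjusted p = 0.485).

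At the second messenger and calcium steps, 2 of 18 fell, none rose and 16 did not pass (11.1% called, against 1.32% of all tested genes). Dgkz, a kinase that consumes the diacylglycerol made after receptor triggering, read 10.39, 10.38, 10.33 and 10.35 in the WT-labelled and 10.16, 10.15, 10.09 and 10.12 in the KO-labelled arrays. The groups stood 0.17 apart, more than the spread within either (0.06 and 0.07), with a difference of -0.23 ± 0.0417 (SE; limma adjusted p = 0.0365). A second, dimmer probe set named for Dgkz differed by 0.0525, and with the mean of both the difference was -0.09 (limma adjusted p = 0.453). Itpkb, which phosphorylates the calcium-releasing messenger inositol trisphosphate, read 10.51, 10.66, 10.57 and 10.50 in the WT-labelled and 10.33, 10.36, 10.25 and 10.29 in the KO-labelled arrays, a difference of -0.25 ± 0.0514 (SE; limma adjusted p = 0.0495). Its groups did not overlap either, and were 0.14 apart. Both enzymes use up the products of phospholipase C gamma 1. The gene of that phospholipase, Plcg1, differed by -0.27 with no overlap, at the threshold (limma adjusted p = 0.05, not passed). Ppp3ca, the catalytic alpha subunit of calcineurin, differed by 0.305 the other way (limma adjusted p = 0.0591), also with no overlap. Each of the 3 calls was lost without WT replicate 1, 2 or 3 or KO replicate 2, 3 or 4, with adjusted p up to 0.133, 0.151 and 0.165; without WT replicate 4, Lime1 alone kept its call, and without KO replicate 1 all 3 passed among 9 genes of the lists (7 lower, 2 higher; 13.4% of those tested), in a fit that called 783 genes in all (6.6%; 320 lower, 463 higher).

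**Figure D4:**
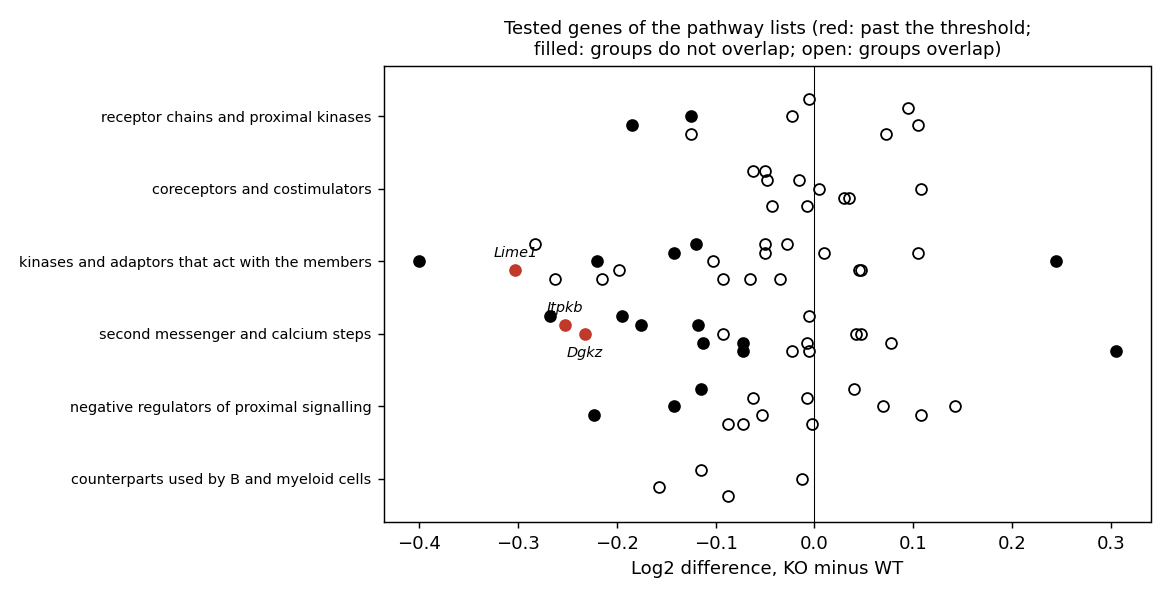
Log2 difference, KO minus WT (x axis), of the 8 genes (top row) and of every tested gene of 5 other role lists; the vertical offset within a row has no meaning, and Trat1, alone in its list, is not drawn. Red marks the 3 genes past the threshold, filled points genes whose groups do not overlap; Lime1, Itpkb and Dgkz lie at -0.30, -0.25 and -0.23.

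The coreceptors and costimulators held no call among 10 tested genes, and their differences stayed between -0.06 and 0.1075. Ctla4, an inhibitory receptor, had the smallest p (0.1075, limma adjusted p = 0.481), while Cd4, which brings Lck to the receptor, differed by 0.005 and Cd28 by 0.035. Negative regulators of the proximal steps held none among 13, with Ubash3a, a phosphatase-family protein that restrains ZAP-70 signalling, at -0.22 (10.34 to 10.54 in WT, 10.14 to 10.27 in KO, limma adjusted p = 0.0866). Csk, the kinase that holds Lck in its inactive form, differed by -0.14 with no overlap (limma adjusted p = 0.167). Trat1, an adaptor bound to the receptor complex, was the only gene of its list with a named probe set and varied from 8.28 to 8.93 within the WT-labelled arrays alone (limma adjusted p = 0.775). The counterparts of this machinery in B and myeloid cells lay low, between 5.25 and 7.63, and of the 10 measured 4 could be tested and none passed; Fgr, a myeloid Src-family kinase, had the smallest p (-0.16, limma adjusted p = 0.346).

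Zap70, Cd247, Skap1 and Txk are also used by NK cells or CD8 T cells, so those markers are given beside them. Of 4 NK markers 1, Nkg7, a granule protein of cytotoxic cells, was above the filter. It read 10.05, 10.79, 10.91 and 9.95 in the WT-labelled and 9.11, 9.55, 9.58 and 9.89 in the KO-labelled arrays (limma adjusted p = 0.0947), lower in every KO array. The other NK markers were under the filter in every array. Ncr1 lay at 5.45 to 5.92 and Klrb1c at 4.48 to 4.75, with overlapping groups and differences of 0.03 and 0.04, the opposite direction. Klrd1 lay at 5.65 to 6.14 in WT and 5.35 to 5.59 in KO, a difference of -0.39, with every KO array below every WT array. The mean over the 4 NK markers was 6.48 to 6.78 in the WT-labelled and 6.24 to 6.46 in the KO-labelled arrays. The largest difference within it was that of Nkg7 (-0.89), and the 4 markers did not all differ in the same direction. The CD8 genes Cd8a (7.05 to 7.73) and Cd8b1 (9.35 to 9.83) overlapped between the groups (limma adjusted p = 0.937 and 0.932). WT replicates 2 and 3, the arrays highest in Cd247, were also the highest in Nkg7, Skap1 and Txk. The order was not particular to these genes. Ubash3a (10.49 and 10.54) and Csk (11.78 and 11.80) were highest in the same arrays. Zap70 differed, with WT replicate 1 (11.58) above WT replicate 3 (11.55). Among the KO-labelled arrays the order of Cd247 and Nkg7 was not shared. KO replicate 1, lowest in Nkg7 (9.11), read 10.57 in Cd247, where KO replicate 3 was lowest (10.44). The part of such cells in the differences of Zap70, Cd247 and Skap1 was not tested, and in these bulk samples fewer cells of a type and less RNA per cell cannot be told apart.

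The genes most like the 8 over the arrays were found from the mean of the 8 after each was centred on its own mean. The other tested genes were ranked by Pearson correlation with it, leaving out predicted genes, clones and antigen receptor segments. All values come from the same arrays and share their normalization. The 5 highest correlations ran from 0.939 to 0.971 over 8 arrays. They belonged to the small nucleolar RNAs Snord15b, Snora16a and Snord118 and the protein-coding genes Cherp and Tomm22. All 5 genes, like the mean of the 8 genes, were lowest in WT replicate 4. Snord118 read 7.72 there, against 8.45 to 9.59 in the other arrays, and Tomm22, a mitochondrial import receptor, 11.09 against 11.20 to 11.45. None of these 5 differed between the groups in the test (limma adjusted p from 0.462 to 0.827).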

How the data were processed

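RNA of 4 WT-labelled and 4 KO-labelled samples was measured on Affymetrix whole-transcript arrays, each sample named by its title. The deposited table holds log2 signals with 2 decimals, a value for each probe set in each array. RMA and Partek are named, per the submitters' processing notes; their versions, order and annotation are not given in the sources used here. RMA as a rule equalizes the arrays' distributions, which hides any change in overall RNA content. Array medians were 7.35 to 7.42. The number of arrays limits the precision.

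Of 35556 probe sets, the platform annotation gave 1 symbol for 21789, several for 1621, and did not list 12146, which are unnamed here. By Entrez identifier 21698 of those with 1 symbol matched RefSeq. The probe set with the highest mean stood for each of 19938 genes (999 had several). Genes above the 40th percentile of the probe sets with 1 symbol in at least 4 arrays, 11926, were tested with limma 3.58.1 in R 4.3.3 (lmFit, eBayes, no block, two-sided; Benjamini-Hochberg over all tested genes, threshold 0.05). Exact permutation tests compared 4 values with 4. On simulated data for this comparison (11926 genes, 20 simulations), the test recovered 84.6% of simulated log2 changes of 0.5 and 99.1% of changes of 1, and 5.13% of calls were false. Smaller changes were not simulated. These rates thus do not cover differences as small as those of the 8 genes (-0.185 to 0.105), or the median size among called genes (0.3525).

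The members and lists were chosen with earlier results of these data known. Named genes were the 8, list genes past the threshold or else with the smallest p, the 5 genes most like the 8, Bcl6 and cell markers; Txk, Fyn, Vav1, Nck1, Fyb, Skap2, Plcg1, Ppp3ca, Csk, Cd28 and Cd4 were added after their values were seen.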

Additional observations from a re-analysis of the deposited data

Results flagged for a closer look

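The values of most of the genes named above were examined in groups of 4. In 6 of 88 groups, 1 array lay far from the other 3, a pattern chance alone gives in about 1 of 20 groups. Skap1 was lowest in KO replicate 3 (10.22, the others 10.27 to 10.28), a gap of 0.05 on values deposited with 2 decimals. Trat1 was highest in WT replicate 4 (8.93, the others 8.28 to 8.36), the array in which the small nucleolar RNA Snord15b was lowest (9.47, the others 10.40 to 10.59). Tomm22 was highest in KO replicate 4 (11.27, the others 11.20). Fyb (10.32, the others 10.64 to 10.68) and Cd200 (12.12, the others 12.31) were lowest in KO replicate 1, the array that stood apart over all genes; without it their differences were -0.112 in place of -0.20 and 0.385 in place of 0.34.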

How the results depend on the processing

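None of the 8 genes passed under 16 of the 20 alternatives. The count was 1 (Skap1) with an intensity trend and a robust prior (limma adjusted p = 0.0476), at a threshold of 0.1, and without KO replicate 1, and 3 with array weights, which gave KO replicate 1 a weight of 0.176 (Skap1, adjusted p = 0.00459; Zap70, 0.0224; Cd247, 0.0467; all lower in KO, where 16.6% of all genes passed). It ranged from 0 to 1 with 1 array left out, and Skap1 missed the threshold at adjusted p = 0.0801 without both KO replicate 1 and WT replicate 3. Cd3d, Cd3g, Cd247, Zap70, Lcp2 and Skap1 kept their sign under all 20, Skap1 between -0.226 and -0.164. Lat turned positive with further quantile normalization (0.0117), with median centring (0.005), without KO replicate 1 and WT replicate 3 together (0.0133) and in 4 of the 8 fits with 1 array left out (range -0.0325 to 0.0142), and Cd3e ranged from -0.0558 to 8e-04 in those fits.

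The 3 pathway genes past the threshold became 6 with further quantile normalization, 1 with median centring, 0 without a filter, 6 with the stricter filter, 8 with the trend and robust prior, 21 with array weights, 1 with the mean over probe sets, 6 without both arrays, 0 at a threshold of 0.01 and 9 at 0.1, and 0 to 9 with 1 array left out. Over all genes, 157 became 322, 78 (48 higher and 30 lower, against 77 and 80), 58, 354 and 1980 with quantile normalization, centring, no filter, trend and array weights, 446 without both arrays, 27 and 468 at the 2 thresholds, and 28 (without WT replicate 3) to 783 (without KO replicate 1) with 1 array left out. With the replicate number as a block, 0 of the 8 genes, 1 pathway gene (Txk) and 36 genes passed; the deviations of same-numbered arrays correlated at r between -0.174 and 0.308, not all above 0.1, and were not treated as pairs; what the numbers mark is not stated. Why the counts move was not tested. Cd4, Cd5, Cd8a and Cd8b1, none of them called, changed sign with 1 array left out, with ranges of -0.0317 to 0.0283, -0.0283 to 0.0017, -0.144 to 0.0917 and -0.04 to 0.12.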
